A study of Mus musculus with 4 samples.

Results

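The neutrophil granule and oxidase genes are 36 mouse genes that encode the proteins stored in neutrophil granules, subunits of the NADPH oxidase, and transcription factors, receptors and other products of the same lineage. They were chosen by name, and all 36 were found among the 18276 genes of the deposited table. Of these, 35 reached 1 CPM (reads scaled to a common library size) in 2 or more libraries and were tested, and Lyz1 did not. Poly(A) RNA had been sequenced from sorted bone marrow cells that lacked B220, CD3 and Mac-1 and carried CD115, which the submitters call osteoclast progenitors. There were 2 libraries from Ptip flox/flox Mx-1Cre mice (Ptip_KO) and 2 from WT Mx-1Cre mice (WT), on the strain background B6;129. Mx-1Cre, a Cre recombinase under an interferon-inducible promoter that is active in many cell types, was thus carried by both groups. The inducer, the age and the number of mice per library are not given in the sources used here.

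Neutrophils make their granules in sequence as they mature. Primary (azurophil) granules are filled first, with myeloperoxidase and serine proteases, in promyelocytes. Secondary (specific) granules follow in myelocytes and tertiary (gelatinase) granules in later cells, while the oxidase subunits are also made by monocytes and macrophages.

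Libraries held 67592972 to 77773478 reads, and 3 reads, the limit set by a count of 0, were worth 0.0380 to 0.0428 CPM (counting error only). Paxip1, which encodes PTIP, was at 5.10 and 3.73 CPM in Ptip_KO and at 106 and 103 CPM in WT and fell (limma adjusted p = 0.000383). Csf1r, which encodes the sorted CD115, was at 606 to 825 CPM. Itgam, the alpha chain of the excluded Mac-1, was present at 35.1 to 42.1 CPM. WT replicate 2 stood apart in sex-linked transcripts, with 298 CPM of Xist against at most 0.0814 CPM elsewhere, and 0.101 CPM of Ddx3y against at least 69.1 CPM. The 2 WT libraries therefore held RNA of different animals. No label says so for Ptip_KO, so p-values measure variation among these libraries and not a stated number of animals. Replicate numbers follow the sample titles, and the deposited column of WT replicate 2 carries the number 3. An exact permutation of 2 against 2 libraries cannot go below a two-sided p of 0.333. Calls therefore depend on limma, which pools information on the spread over 12357 tested genes.

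Upstream sequences of 5 members are shown because these members covered the range of behaviour: Padi4 and Trem1 passed the test, S100a9 is abundant with groups apart, Ltf overlapped between groups with replicate 2 the higher library of each, and Ctsg overlapped at similar levels. Padi4 and Trem1 were chosen by their limma p in these data, and S100a9, Ltf and Ctsg after their values were seen. Each run covers bases 250 to 51 before the RefSeq start (GRCm38.p6), 5′ to 3′ on the strand of the gene. Capitals mark matches on either strand to TTGCNNAA, a core bound by C/EBP factors, and to GGAAGT, a core bound by PU.1 and other ETS factors. The stretches are chr4:140774254-140774453 (minus strand) for Padi4, chr17:48232489-48232688 (plus) for Trem1, chr3:90695772-90695971 (minus) for S100a9, chr9:111019042-111019241 (plus) for Ltf and chr14:56102625-56102824 (minus) for Ctsg.
Padi4: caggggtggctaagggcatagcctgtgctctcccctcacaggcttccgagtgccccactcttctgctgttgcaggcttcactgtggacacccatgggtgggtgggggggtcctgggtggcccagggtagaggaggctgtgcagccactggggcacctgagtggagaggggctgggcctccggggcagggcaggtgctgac
Trem1: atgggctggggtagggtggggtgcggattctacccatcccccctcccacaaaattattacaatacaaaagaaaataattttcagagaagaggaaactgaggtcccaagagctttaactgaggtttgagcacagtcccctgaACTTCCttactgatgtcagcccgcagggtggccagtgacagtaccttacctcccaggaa
S100a9: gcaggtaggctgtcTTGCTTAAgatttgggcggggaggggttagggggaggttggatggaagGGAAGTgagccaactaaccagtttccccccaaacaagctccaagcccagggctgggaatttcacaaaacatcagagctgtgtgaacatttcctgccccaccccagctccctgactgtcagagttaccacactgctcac
Ltf: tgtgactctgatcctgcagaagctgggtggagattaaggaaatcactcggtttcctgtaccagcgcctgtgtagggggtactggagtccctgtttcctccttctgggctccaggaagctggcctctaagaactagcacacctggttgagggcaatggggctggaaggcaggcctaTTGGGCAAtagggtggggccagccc
Ctsg: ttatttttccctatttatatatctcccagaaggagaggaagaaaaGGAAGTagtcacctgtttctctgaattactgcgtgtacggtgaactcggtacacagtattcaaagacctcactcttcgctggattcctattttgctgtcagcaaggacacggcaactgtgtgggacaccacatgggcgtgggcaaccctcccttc

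Within 250 bases before the start, 11 of the 30 members with a RefSeq promoter held TTGCNNAA on either strand (36.7%), against 10.8% of 27025 genes with a promoter in the same table. GGAAGT was found for 16 of the 30 (53.3%), against 22.2% of all. A gene counted once over its listed starts, and no matches of the members overlapped each other. The promoters of Padi4, Pglyrp1 and Chil1 held neither motif, and that of Trem1 held GGAAGT on the reverse strand, 109 bases before the start. Elane, Mpo, Prtn3 and Ctsg each held GGAAGT once and no TTGCNNAA. Ltf held TTGCNNAA 75 bases before its start, and Ngp held it at 138 and 11 bases. A match describes letters and not a bound site. Promoters of Hp, Mmp9, Serpinb1a, Ncf4, Cebpe and Trem3 were not analysed here.

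Between Ptip_KO and WT, 6 of the 35 tested members fell and 0 rose. They were Padi4, Ncf4, Trem1, Pglyrp1, Serpinb1a and Chil1, by limma on log2(CPM + 1) with an adjusted p under 0.05, where 3.86% of all tested genes were called lower and 2.43% higher. Both Ptip_KO libraries lay below both WT libraries for 19 tested members, against 27.3% of all tested genes. Both lay above for 3 members (Ncf1, Trem3 and Fcnb), against 27.7%. The median log2 fold change was −0.57 over the tested members and 0.0032 over all tested genes. At an unadjusted p under 0.05 there were 17 members, against 23.8% of all tested genes. In bulk libraries, fewer cells of a type and less RNA per cell cannot be told apart.

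On recovered reads, edgeR called 5 members lower (all of the 6 but Chil1) and 0 higher, where it called 3.37% of all genes lower and 1.97% higher. DESeq2 called 11 members lower and 0 higher, against 9.11% and 6.31% of all genes. Its additional members were Olfm4, Cd177, S100a8, S100a9 and Ms4a3. Omitting Ptip_KO replicate 1 left 12 members called lower (2.74% of all genes), and omitting Ptip_KO replicate 2 left 5 (2.86%). Omitting WT replicate 1 gave 19 (7.36%), and omitting WT replicate 2 gave 15 (7.45%). Members called higher numbered 1 without Ptip_KO replicate 1 (Fcnb, 0.914% of all genes) and 1 without WT replicate 1 (Cybb, 4.73%). They numbered 0 without Ptip_KO replicate 2 (0.995%) and 0 without WT replicate 2 (5.66%).

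**Figure D1:**
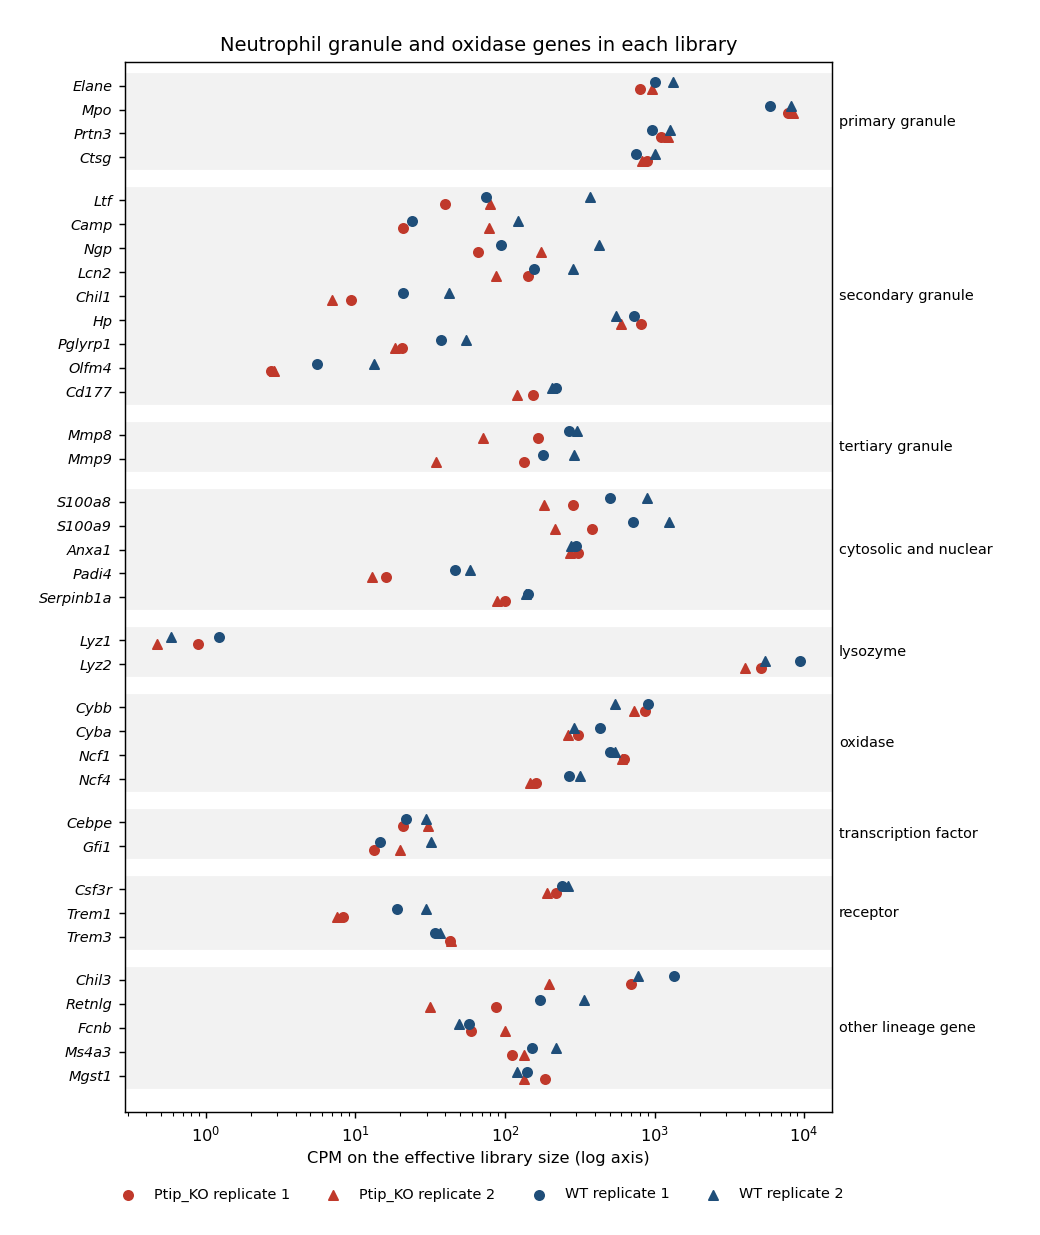
CPM on the effective library size (log axis) of the 36 members in each library, ordered by role; red marks are Ptip_KO and blue marks WT, circles replicate 1 and triangles replicate 2. Padi4, Trem1 and Ncf4 are separated by group, whereas Ltf, Camp and Ngp are higher in replicate 2 of each group.

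Primary granule genes were among the most abundant members, and 0 of 4 passed the test, also by edgeR and DESeq2, with 0 at an unadjusted limma p under 0.05. Mpo, which encodes myeloperoxidase, was at 7772 and 8481 CPM in Ptip_KO and at 5885 and 8162 CPM in WT. Its groups overlapped, with a log2 fold change of 0.23 (95% interval −0.34 to 0.80). Prtn3, the gene of proteinase 3, was at 1111 and 1233 CPM in Ptip_KO and at 964 and 1275 CPM in WT. Ctsg, the gene of cathepsin G, was at 894 and 830.0 CPM in Ptip_KO and at 754 and 1008 CPM in WT. Both overlapped as well, with 95% intervals of −0.33 to 0.49 for Prtn3 and −0.42 to 0.39 for Ctsg. The lower bounds of these 3 intervals lay above the log2 fold change of Serpinb1a, the smallest of the 6 calls (−0.57). The interval of Elane, −0.85 to 0.024, included that value.

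Elane, the gene of neutrophil elastase, differed from the other primary granule genes in that its groups did not overlap. It was at 797 and 955 CPM in Ptip_KO and at 1008 and 1338 CPM in WT. The log2 fold change was −0.41 ± 0.177 (SE) at a limma adjusted p of 0.232, and without WT replicate 1 it was −0.62 at 0.0318. Elane lies on chromosome 10 at 79886247 to 79888215 (mm10, GENCODE M21), next to Prtn3 at 79874476 to 79883174. The reads of Elane per read of Prtn3 were 0.717 and 0.774 in Ptip_KO and 1.05 and 1.05 in WT, apart between the groups and close within each. Prtn3 overlaps Plppr3 on the opposite strand, and whether the counting used strand is not given in the sources used here.

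Levels of the primary granule genes can be ranked per kilobase of exon. In WT the level was highest for Mpo (2051 CPM per kb), followed by Elane (1192), Ctsg (853) and Prtn3 (646), of which the libraries of Ctsg and Prtn3 overlapped. In Ptip_KO the order was again Mpo (2373 CPM per kb), Elane (889.8), Ctsg (835) and Prtn3 (676), and there Elane and Ctsg overlapped.

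Of 9 secondary granule genes 2 fell and 0 rose, with 8 log2 fold changes below 0 and a median of −0.91. The number that fell was 3 and 1 without Ptip_KO replicates 1 and 2 in turn, and 7 and 4 without WT replicates 1 and 2. The 7 without WT replicate 1 were Ltf, Ngp, Lcn2, Chil1, Pglyrp1, Olfm4 and Cd177. The number was 1 by edgeR, 4 by DESeq2 and 0 with a common sum. Pglyrp1, which encodes an antibacterial peptidoglycan-binding protein, was at 20.6 and 18.4 CPM in Ptip_KO and at 37.6 and 54.6 CPM in WT. It fell from 46.1 ± 12.0 to 19.5 ± 1.55 CPM (SD, n = 2), a log2 fold change of −1.18 ± 0.186 (SE) with a limma adjusted p of 0.0267. Chil1, a chitinase-like protein gene, was at 9.38 and 6.94 CPM in Ptip_KO and at 20.6 and 42.2 CPM in WT. Chil1 fell with a log2 fold change of −1.75 ± 0.333 (SE) and a limma adjusted p of 0.0427, which was 0.0572 by edgeR and 0.0509 without Ptip_KO replicate 2. For both genes the groups were apart and WT replicate 2 was the higher WT library. Pglyrp1 lies on chromosome 7 at 18871331 to 18890459 and Chil1 on chromosome 1 at 134182176 to 134190181.

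Ltf, Camp and Ngp encode lactoferrin, the cathelicidin precursor and neutrophilic granule protein, all secondary granule products, and lie on chromosome 9. Ltf was at 39.8 and 79.9 CPM in Ptip_KO and at 74.4 and 369 CPM in WT. Camp was at 20.7 and 78.0 CPM in Ptip_KO and at 23.9 and 122 CPM in WT. Ngp was at 65.9 and 173 CPM in Ptip_KO and at 94.5 and 422 CPM in WT. For these 3 genes replicate 2 was the high library of each group, and the groups overlapped. Replicate 2 exceeded replicate 1 in Ptip_KO by 2.01-fold for Ltf, 3.77-fold for Camp and 2.63-fold for Ngp, and in WT by 4.96-fold, 5.09-fold and 4.47-fold. The limma adjusted p was 0.282 for Ltf, 0.821 for Camp and 0.533 for Ngp, and without WT replicate 1 it was 0.000246, 0.0850 and 0.00882. Without WT replicate 2 the log2 fold change was −0.39 for Ltf, 0.73 for Camp and 0.18 for Ngp, against −1.54, −0.42 and −0.90 with all libraries. The reads of Camp per read of Ltf were 0.520 and 0.976 in Ptip_KO and 0.322 and 0.330 in WT.

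The remaining secondary granule genes did not pass by limma. Olfm4, which marks a subset of neutrophils, was at 2.73 and 2.85 CPM in Ptip_KO and at 5.58 and 13.2 CPM in WT (limma adjusted p = 0.0872, DESeq2 0.00100). Cd177, the surface partner of proteinase 3, was at 154 and 120.2 CPM in Ptip_KO and at 219 and 207 CPM in WT (limma adjusted p = 0.0546, DESeq2 0.000107). Lcn2, the gene of the siderophore binder lipocalin 2, was at 143 and 87.2 CPM in Ptip_KO and at 155 and 284 CPM in WT (limma adjusted p = 0.184). Both Ptip_KO libraries lay below both WT libraries for these 3 genes. Hp, the gene of haptoglobin, was at 806 and 601 CPM in Ptip_KO and at 727 and 551 CPM in WT and overlapped.

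The tertiary granule genes were Mmp8 and Mmp9, for neutrophil collagenase, which secondary granules also hold, and gelatinase B. Mmp8 was at 165 and 71.2 CPM in Ptip_KO and at 267 and 302 CPM in WT, with a log2 fold change of −1.38 ± 0.369 (SE) and a limma adjusted p of 0.0912. Mmp9 was at 135 and 34.8 CPM in Ptip_KO and at 179 and 287 CPM in WT, with a log2 fold change of −1.71 ± 0.611 (SE) and a limma adjusted p of 0.169. For both, the groups were apart and Ptip_KO replicate 2 was the lowest library. Without Ptip_KO replicate 1 the log2 fold change was −1.98 for Mmp8 and −2.67 for Mmp9, and without Ptip_KO replicate 2 it was −0.78 and −0.74. Mmp8 passed in each fit that left out 1 library (limma adjusted p 0.00103 to 0.0458), and had an adjusted p of 0.122 by DESeq2.

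Of 5 genes of cytosolic and nuclear proteins 2 fell and 0 rose, with a median log2 fold change of −1.54. The number of them that fell was 3 and 1 without Ptip_KO replicates 1 and 2 in turn, and 4 and 4 without WT replicates 1 and 2. Padi4 encodes the enzyme that citrullinates histones when neutrophils release chromatin traps. It was at 15.9 and 12.9 CPM in Ptip_KO and at 46.6 and 58.1 CPM in WT, with the groups far apart. Padi4 had the smallest p of the members: it fell from 52.3 ± 8.14 to 14.4 ± 2.09 CPM (SD, n = 2), a log2 fold change of −1.79 ± 0.154 (SE) with a limma adjusted p of 0.00638. Its gene lies on chromosome 4 at 140745865 to 140774236 and overlaps no other annotated gene. Serpinb1a, which encodes an inhibitor of elastase, cathepsin G and proteinase 3, was at 101 and 88.6 CPM in Ptip_KO and at 143 and 139 CPM in WT. Serpinb1a fell with a log2 fold change of −0.57 ± 0.0966 (SE) and a limma adjusted p of 0.0309, which was 0.0587 without Ptip_KO replicate 1 and 0.162 without Ptip_KO replicate 2.

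S100a8 and S100a9 encode the subunits of calprotectin and lie near each other on chromosome 3. S100a8 was at 287 and 183 CPM in Ptip_KO and at 503 and 884 CPM in WT. S100a9 was at 383 and 216 CPM in Ptip_KO and at 714 and 1242 CPM in WT. The groups were apart for both, and neither passed, with a limma adjusted p of 0.0521 for S100a8 and 0.0509 for S100a9. DESeq2 gave 0.0198 and 0.0199, and edgeR 0.0712 and 0.0717. Without Ptip_KO replicate 2 the limma adjusted p was 0.0785 and 0.0634, and both genes passed without any other single library. The reads of S100a9 per read of S100a8 were 1.34 and 1.18 in Ptip_KO and 1.42 and 1.40 in WT. Anxa1, the gene of the anti-inflammatory annexin A1, was at 305 and 272 CPM in Ptip_KO and at 299 and 275 CPM in WT and overlapped, with a 95% interval of −0.25 to 0.27 on the log2 scale.

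**Figure D2:**
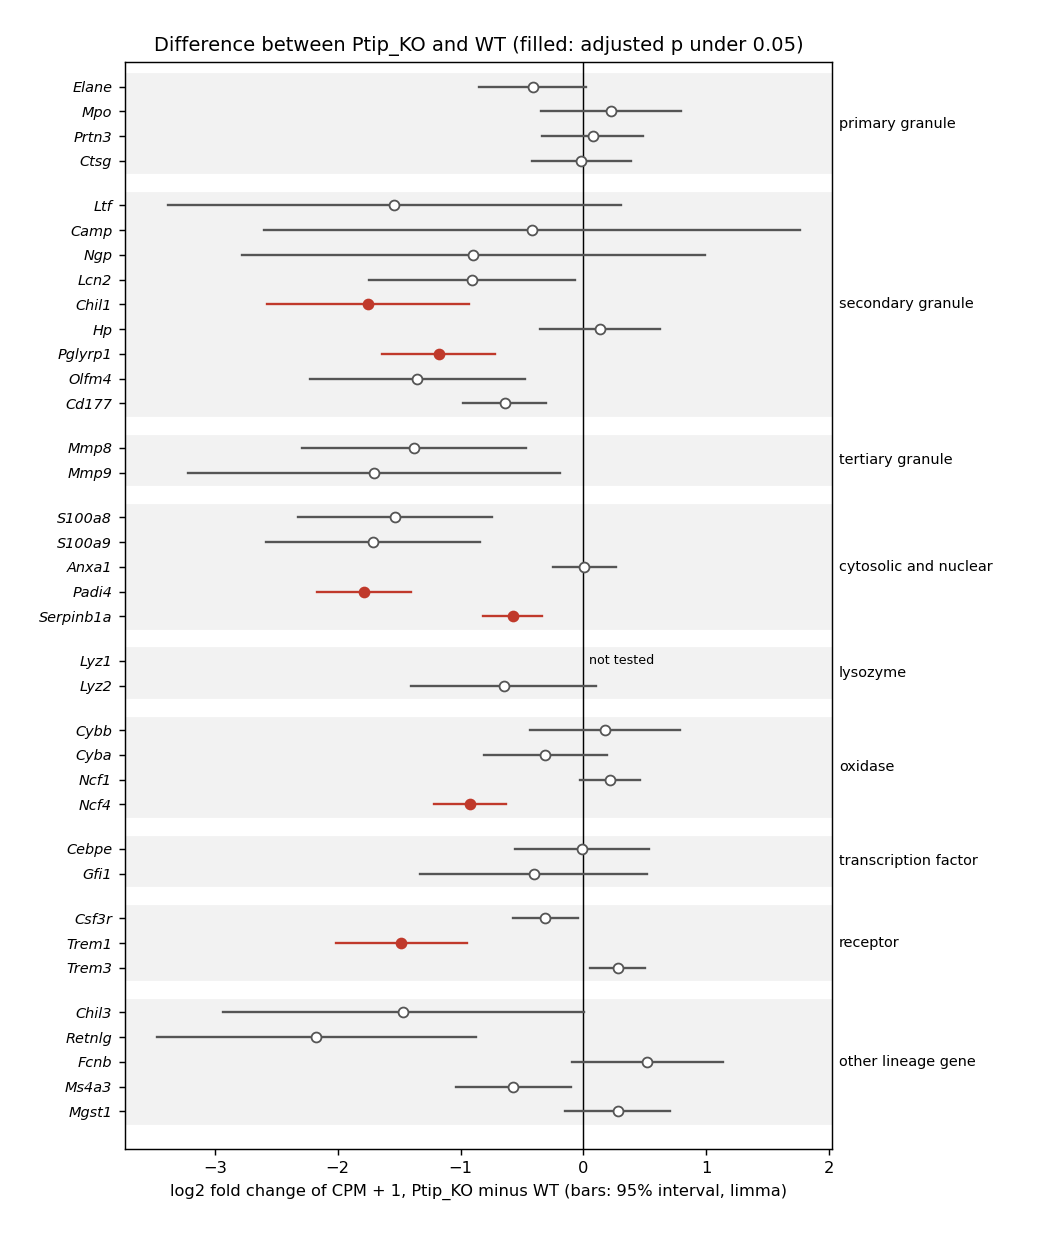
Log2 fold change of CPM + 1 (Ptip_KO minus WT) with its 95% interval from limma for the 35 tested members, ordered by role; filled red marks have an adjusted p under 0.05. The 6 filled marks lie between −1.79 and −0.57, the primary granule genes between −0.41 and 0.23, and the interval of Camp spans −2.60 to 1.76.

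The NADPH oxidase moves electrons through a membrane core of gp91phox (Cybb) and p22phox (Cyba), which cytosolic subunits such as p47phox (Ncf1) and p40phox (Ncf4) activate. Of these 4 genes 1 fell and 0 rose, with a median log2 fold change of −0.066. The median was −0.19 and 0.025 without Ptip_KO replicates 1 and 2 in turn, and 0.072 and −0.39 without WT replicates 1 and 2. Without WT replicate 2 Cyba fell as well, and without WT replicate 1 Cybb rose. Ncf4 was at 162 and 147 CPM in Ptip_KO and at 268 and 319 CPM in WT. It fell from 294 ± 36.01 to 154 ± 10.4 CPM (SD, n = 2), a log2 fold change of −0.92 ± 0.117 (SE) with a limma adjusted p of 0.0160. Ncf4 lies on chromosome 15 at 78244801 to 78262580 and overlaps no other annotated gene. Ncf1 was at 624 and 602 CPM in Ptip_KO and at 507 and 546 CPM in WT, above WT in both Ptip_KO libraries, with a log2 fold change of 0.22 (95% interval −0.025 to 0.46) and a limma adjusted p of 0.249. Ncf1 overlaps Gtf2ird2 on the opposite strand. The reads of Ncf4 per read of Ncf1, a value that library scaling does not touch, were 0.259 and 0.244 in Ptip_KO and 0.529 and 0.585 in WT.

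Cybb was at 867 and 729 CPM in Ptip_KO and at 905 and 546 CPM in WT. Cyba was at 309.5 and 265 CPM in Ptip_KO and at 433 and 291 CPM in WT. Both overlapped between the groups, with WT replicate 1 as the high library. Cybb is on chromosome X and was lowest in WT replicate 2, the library with Xist; without that library its log2 fold change was −0.19, against 0.18 with all 4. The reads of Cybb per read of Cyba were 2.80 and 2.76 in Ptip_KO and 2.09 and 1.88 in WT, apart between the groups.

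**Figure D3:**
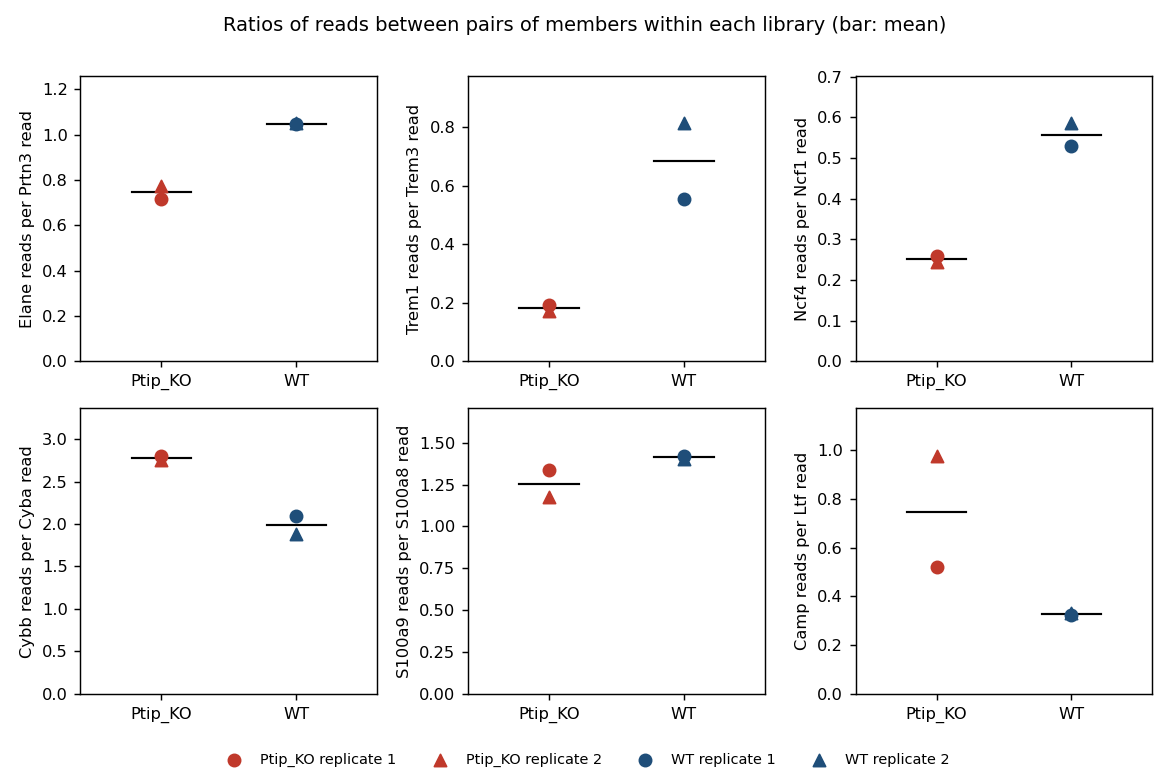
Reads of one member per read of another in each library (linear axes from 0; circles replicate 1, triangles replicate 2, bars the mean of 2 libraries) for 6 of 11 pairs, which were chosen after the members' values had been seen. The groups do not overlap in the 6 pairs drawn, and Ncf4 per Ncf1 lies at 0.244 to 0.259 in Ptip_KO and 0.529 to 0.585 in WT.

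Among 10 further genes of oxidase assembly and NADPH supply 1 fell and 0 rose, with a median of −0.10. Their median was 0.031 without WT replicate 1 and −0.21 without WT replicate 2. By DESeq2 3 fell, and by limma without WT replicate 2 2. Prkcb, a protein kinase C that phosphorylates p47phox, was at 19.2 and 17.5 CPM in Ptip_KO and at 62.1 and 43.5 CPM in WT and fell with a log2 fold change of −1.45 ± 0.178 (SE) (limma adjusted p = 0.0146). Pgd, an NADPH-producing enzyme, the GTPase gene Rac2 and the proton channel gene Hvcn1 lay below WT in both Ptip_KO libraries, at limma adjusted p of 0.0797, 0.133 and 0.126.

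Of the transcription factors, C/EBP epsilon (Cebpe) is needed for secondary granules and GFI1 (Gfi1) represses genes of other lineages during neutrophil formation. Cebpe was at 20.8 and 30.4 CPM in Ptip_KO and at 21.9 and 29.5 CPM in WT (limma adjusted p = 0.983, 95% interval −0.55 to 0.53). Gfi1 was at 13.2 and 19.9 CPM in Ptip_KO and at 14.7 and 32.2 CPM in WT (limma adjusted p = 0.569, 95% interval −1.33 to 0.52). Both overlapped between groups and were higher in replicate 2 of each, as were Ltf, Camp and Ngp. Without WT replicate 1 the limma adjusted p of Gfi1 was 0.0128. Of 14 further transcription factors of granulocyte formation 1 fell and 0 rose, with a median of −0.028. By DESeq2, and also by limma with a common sum, 1 fell and 1 rose. The median of the 14 was 0.10 without WT replicate 1 and −0.12 without WT replicate 2. Cebpb, which acts in emergency granulocyte production, was at 88.4 and 103 CPM in Ptip_KO and at 198 and 194 CPM in WT and fell with a log2 fold change of −1.03 ± 0.104 (SE) (limma adjusted p = 0.00933). Cebpb overlaps Tmem189 on the opposite strand. Cebpa, which acts at granulocyte commitment, was at 234 and 231 CPM in Ptip_KO and at 235 and 303 CPM in WT (limma adjusted p = 0.438). Cebpd lay below WT and Runx1 and Stat3 above WT in both Ptip_KO libraries, at limma adjusted p of 0.213, 0.107 and 0.217.

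The 3 receptor genes differed in direction. Trem1, whose product amplifies inflammatory signals in myeloid cells, was at 8.20 and 7.56 CPM in Ptip_KO and at 19.0 and 29.8 CPM in WT. It fell from 24.4 ± 7.64 to 7.88 ± 0.447 CPM (SD, n = 2), a log2 fold change of −1.48 ± 0.214 (SE) with a limma adjusted p of 0.0222, and 0.0505 when libraries were rescaled to a common sum. Trem3, a related receptor, was at 42.8 and 43.7 CPM in Ptip_KO and at 34.3 and 36.7 CPM in WT, above WT in both libraries and not called (limma adjusted p = 0.138). The neighbours lie on chromosome 17, Trem1 at 48232768 to 48246924 with a processed pseudogene on its opposite strand and Trem3 at 48247777 to 48258841. The reads of Trem1 per read of Trem3 were 0.191 and 0.173 in Ptip_KO and 0.554 and 0.812 in WT. Csf3r, the receptor of the growth factor G-CSF, was at 218 and 190.0 CPM in Ptip_KO and at 242 and 263 CPM in WT, with groups apart and a limma adjusted p of 0.154. Csf3r shares 1518 bases at 96.8% identity with a processed pseudogene.

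Lyz2 encodes lysozyme M, which monocytes and macrophages also make. It was at 5168 and 4004 CPM in Ptip_KO and at 9364 and 5438 CPM in WT. The groups were apart, but WT replicate 2 lay nearer to Ptip_KO replicate 1 than to WT replicate 1. The limma adjusted p was 0.268, and 0.0167 without WT replicate 2. Lyz1, its neighbour on chromosome 10, which Paneth cells use, was at 0.471 to 1.22 CPM and was not tested. Transcripts of Lyz1 and Lyz2 match at 95.8% over 1264 bases, so the split of reads between them is uncertain. Per kilobase of exon Lyz2 had the highest level of the members in WT, at 5624 CPM.

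Of 5 other lineage genes 0 passed by limma or edgeR, 1 (Ms4a3) passed by DESeq2, and 2 had an unadjusted limma p under 0.05. Without Ptip_KO replicate 1 or without WT replicate 2 Chil3 and Retnlg fell, and without WT replicate 1 Retnlg and Ms4a3. Retnlg, for a resistin-like protein of neutrophils, was at 87.7 and 31.5 CPM in Ptip_KO and at 171 and 339.9 CPM in WT. It had the most negative log2 fold change of the members, −2.17 ± 0.524 (SE), at a limma adjusted p of 0.0727. Chil3, for a chitinase-like protein, was at 694 and 197 CPM in Ptip_KO and at 1353 and 776 CPM in WT (limma adjusted p = 0.212), with Ptip_KO replicate 1 nearer to WT replicate 2 than to Ptip_KO replicate 2. Ms4a3, for a membrane protein of granulocyte and monocyte progenitors, was at 112 and 134 CPM in Ptip_KO and at 152 and 218 CPM in WT (limma adjusted p = 0.145, DESeq2 0.0285). Fcnb, for ficolin B, was at 58.9 and 101 CPM in Ptip_KO and at 57.6 and 49.4 CPM in WT. It had the most positive log2 fold change of the members, 0.52 ± 0.248 (SE) (limma adjusted p = 0.273), and its groups were only narrowly apart. Mgst1, for a microsomal glutathione transferase, was at 186 and 134 CPM in Ptip_KO and at 139 and 121 CPM in WT and overlapped.

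The libraries of a genotype differed widely for many members. Within Ptip_KO 7 of 36 members were at least 2-fold apart and within WT 7, where this held for 2.27% and 3.14% of all tested genes. The 7 in WT include Lyz1, which was not tested and was at 1.22 and 0.583 CPM there. Replicate 2 was higher than replicate 1 in both groups for 11 members and lower in both for 10. For 14 members, among them Retnlg, Mmp9, S100a8, S100a9 and Lcn2, it was lower in Ptip_KO and higher in WT. Ptip_KO replicate 2 held the lowest value of 19 members, and WT replicate 2 the highest of 21. Markers of eosinophils (7 genes) summed to 41.1 CPM in Ptip_KO replicate 1 and 101 CPM in replicate 2, and in WT to 67.0 and 226 CPM. Those of basophils and mast cells (6 genes) summed to 62.4 and 148 CPM in Ptip_KO, and in WT to 94.95 and 193 CPM. These sums were higher in replicate 2 of each group, as were Ltf, Camp and Ngp. The erythroid sum (8 genes) went the same way, from 630.3 CPM in Ptip_KO replicate 1 to 824 CPM in replicate 2. Between WT replicates 1 and 2 it went from 1595 to 4025 CPM. The T cell sum (5 genes), at most 3.73 CPM in any library, was also higher in replicate 2 of each group. Sums of the other marker lists were not higher in replicate 2 of both groups. The part of any cell type in the values of Ltf, Camp and Ngp was not tested.

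**Figure D4:**
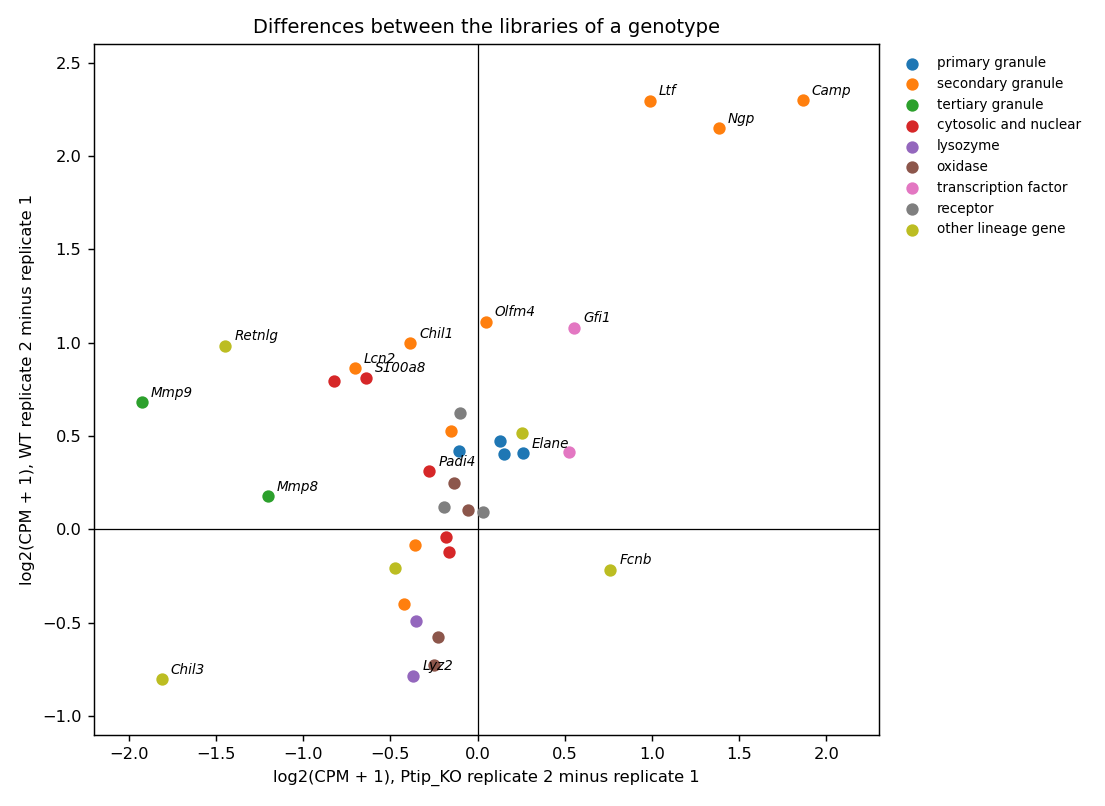
Difference in log2(CPM + 1) between replicate 2 and replicate 1 in Ptip_KO (x axis) and in WT (y axis) for the 36 members, coloured by role. Ltf, Camp and Ngp lie at the upper right, higher in replicate 2 of both groups, and Mmp9, Mmp8 and Retnlg at the upper left, lower in Ptip_KO replicate 2 and higher in WT replicate 2.

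The other roles were also set against the 4 primary granule genes in the same library. Per 100 primary granule reads, reads of the 2 tertiary granule genes numbered 2.84 and 0.921 in Ptip_KO and 5.18 and 5.003 in WT. Those of the 5 cytosolic and nuclear genes numbered 10.3 and 6.72 in Ptip_KO and 19.8 and 22.1 in WT, and those of the 9 secondary granule genes 11.9 and 10.2 in Ptip_KO and 15.8 and 17.5 in WT. The groups did not overlap in these 3 ratios, nor for the receptors and the other lineage genes. Such separation is common with 2 libraries a group: of all tested genes, 27.3% lay below WT and 27.7% above it in both Ptip_KO libraries. They overlapped for the oxidase genes, at 18.6 and 15.2 in Ptip_KO and 24.6 and 14.4 in WT, and for the lysozymes and the transcription factors. The difference between granule stages was not tested. Mpo was the largest part of the primary granule sum in each library (7772 of 10573.5 CPM in Ptip_KO replicate 1). Hp, which overlapped between the groups, gave 806 of 1262 and 601 of 1168 CPM of the secondary granule sum in Ptip_KO. In WT Hp gave 727 of 1358 and 551 of 2066 CPM. The 36 members took 2.18% and 2.09% of all reads in Ptip_KO and 2.45% and 2.66% in WT.

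Other neutrophil genes were read from 3 further lists. Of all tested genes, limma called 3.86% lower and 2.43% higher. The share called lower was 3.37% by edgeR and 9.11% by DESeq2. Of 18 surface genes 3 fell and 0 rose, with a median of −0.81. Both Ptip_KO libraries lay below both WT libraries for 13, against 27.3% of all tested genes. The median was −1.15 and −0.59 without Ptip_KO replicates 1 and 2 in turn, and −0.97 and −0.62 without WT replicates 1 and 2. By DESeq2 9 surface genes fell. Mmp25, a membrane-bound metalloprotease, was at 3.03 and 2.23 CPM in Ptip_KO and at 10.5 and 17.8 CPM in WT and fell with a log2 fold change of −2.02 ± 0.261 (SE) (limma adjusted p = 0.0165). The adhesion molecule genes Ceacam10 and Ceacam1 fell with log2 fold changes of −1.90 and −1.14 (limma adjusted p = 0.0143 and 0.0267). Itgb2l, an integrin chain gene of neutrophils, was at 7.16 and 4.74 CPM in Ptip_KO and at 15.6 and 40.6 CPM in WT and did not pass (limma adjusted p = 0.0612).

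Of 15 tested further granule and neutrophil products 2 fell and 0 rose, with a median of −0.16. Their median was −0.35 and −0.025 without Ptip_KO replicates 1 and 2 in turn, and −0.38 and −0.28 without WT replicates 1 and 2. By edgeR 1 fell and by DESeq2 5, with 0 higher in either. With the replicate number as a block, limma called 3 of these products lower and 1 higher. Slpi, for a secreted inhibitor of elastase and cathepsin G, was at 20.7 and 15.0 CPM in Ptip_KO and at 95.6 and 81.5 CPM in WT. Slpi fell with a log2 fold change of −2.26 ± 0.170 (SE) (limma adjusted p = 0.00473), a more negative value than that of any of the 35 tested members. Abca13, an ABC transporter gene, fell with a log2 fold change of −1.78 ± 0.315 (SE) (limma adjusted p = 0.0356, edgeR 0.0598). Adam8, for a membrane metalloprotease, was at 16.3 and 7.84 CPM in Ptip_KO and at 37.4 and 86.1 CPM in WT (limma adjusted p = 0.0523), and Mcemp1 was also below WT in both libraries (limma adjusted p = 0.0596).

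Of 16 genes of granule biogenesis and release 1 fell and 0 rose, with a median of −0.11. Here the count that fell was 1 and 1 without Ptip_KO replicates 1 and 2 in turn, and 2 and 3 without WT replicates 1 and 2. It was 2 by edgeR and 3 by DESeq2. Lyst, whose loss gives the giant granules of Chediak-Higashi syndrome, was at 158 and 127 CPM in Ptip_KO and at 432 and 378 CPM in WT and fell with a log2 fold change of −1.50 ± 0.137 (SE) (limma adjusted p = 0.00673). Ctsc, whose product activates the granule serine proteases, was at 285 and 262 CPM in Ptip_KO and at 568 and 377 CPM in WT (limma adjusted p = 0.0862, DESeq2 0.000308). Rab27a, a GTPase gene of granule release, and Nbeal2, a gene of granule formation, lay below WT in both Ptip_KO libraries at limma adjusted p of 0.0643 and 0.173.

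**Figure D5:**
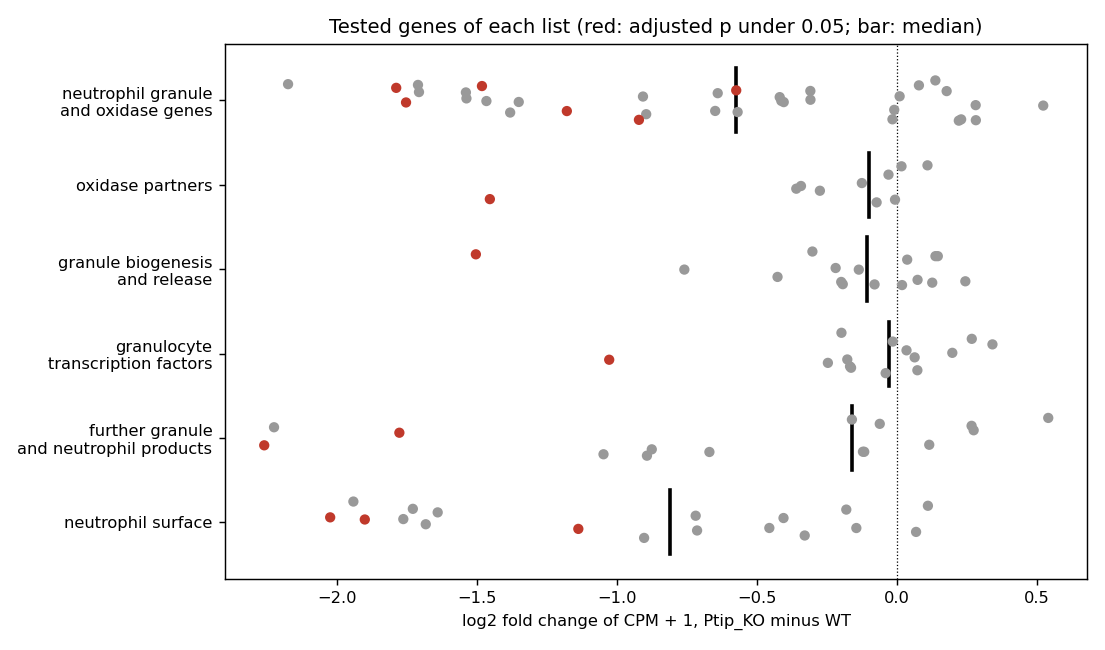
Log2 fold change of CPM + 1 (Ptip_KO minus WT, x axis) of each tested gene among the 36 members and in 5 further lists; red marks have an adjusted p under 0.05, bars are medians, and vertical scatter within a list has no meaning. The median is −0.57 for the members, −0.81 for the surface genes and between −0.16 and −0.028 for the other lists.

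Markers of 9 cell types were summed per library, among them B cells, T cells and Mac-1-bearing neutrophils, which the sort was set to remove. Of 8 neutrophil markers outside the 36 genes 2 fell (Mmp25 and Ceacam10) and 0 rose, with sums of 84.7 to 125 CPM in Ptip_KO and of 155 to 214 CPM in WT, and none was at 0. All 8 of these markers are also in the lists of surface genes and further products above, so these calls are not additional ones. The count of these markers that fell was 6 and 2 without Ptip_KO replicates 1 and 2 in turn, and 6 and 3 without WT replicates 1 and 2. Of 8 monocyte markers 0 passed by limma, 0 by edgeR and 4 by DESeq2, with 4 at an unadjusted limma p under 0.05, 5 lower without WT replicate 2 and sums of 5089.6 to 6495 CPM in Ptip_KO and of 6953 to 8980.3 CPM in WT. Of 7 tested macrophage markers 6 fell, also by edgeR and DESeq2, with sums over 8 genes of 18.5 to 22.4 CPM in Ptip_KO and of 98.7 to 124 CPM in WT. Of 8 erythroid markers 6 fell by limma, 2 by edgeR, 7 by DESeq2 and 2 with a common sum, and their sums were 630.3 to 824 CPM in Ptip_KO and 1595 to 4025 CPM in WT.

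Of 5 tested stem and progenitor markers 2 fell (Kit and Flt3) and 0 rose, and only these 2 had a log2 fold change below 0. The median of the 5 was 0.27. Both Ptip_KO libraries lay above both WT libraries for 2, against 27.7% of all tested genes, and below for 2, against 27.3%. The median of these markers was −0.041 without WT replicate 1 and 0.54 without WT replicate 2. Stem and progenitor markers had sums over 6 genes of 421 to 434 CPM in Ptip_KO and of 368 to 489 CPM in WT. Of 2 tested B cell markers Cd79b passed as higher by limma (adjusted p = 0.0454), but not by edgeR (0.0663), with a common sum (0.0718) or without Ptip_KO replicate 1 (0.133) or 2 (0.0836). B cell markers had sums over 6 genes of 52.0 to 56.1 CPM in Ptip_KO and of 29.5 to 47.3 CPM in WT. T cell markers had sums over 5 genes of 0.552 to 1.54 CPM in Ptip_KO and of 2.25 to 3.73 CPM in WT, with 1 tested and 0 passing by limma or edgeR and 1 by DESeq2, and Cd3e was at 0 reads in Ptip_KO replicate 1. Of 6 tested eosinophil markers 0 passed by limma, 0 by edgeR and 1 by DESeq2, and 4 were lower without WT replicate 1. Of 6 basophil and mast cell markers 0 passed by limma (0 at an unadjusted p under 0.05), 0 by edgeR and 0 by DESeq2, and 1 was lower without WT replicate 1. The part that other cell types have in the members' differences was not tested.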

How the data were processed

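RNA from the 4 libraries had been prepared as stranded poly(A) libraries (Illumina TruSeq), per the labels. Tools listed in the submitters' processing notes are TopHat2 2.0.10, HTSeq 0.6.0 and edgeR 3.8.6, with mm10 as the build; their settings and the use of strand are not given in the sources used here. For each gene the authors deposited a normalized signal, CPM on the effective library size. Each value was a whole multiple of what 1 read is worth (tolerance 0.01 read, 100% of values), which returned the reads. The members and lists were chosen with earlier results of these data known.

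Values were transformed to log2(CPM + 1) and tested with limma 3.58.1 (R 4.3.3), two-sided, with a prior variance that follows the mean and no covariate beside genotype, over the 12357 genes that reached 1 CPM in 2 or more libraries. The Benjamini-Hochberg threshold was 0.05. Fold changes on this scale understate those of low genes. Named genes are all members and, of each further list, up to 4 with the smallest p; Cebpa was added after its values were seen. Alternatives were edgeR 4.0.16 and DESeq2 1.42.0 on the recovered reads, other pseudocounts, filters and scalings, a robust prior, a replicate block and leaving out each library. The fits were also run on simulated counts that held no replicate or sex effect. That run cannot show how the fits behave where such effects are present. Replicates differed beyond sampling noise (chi-square per degree of freedom 54.5 in Ptip_KO and 117 in WT). Positions and exon lengths come from GENCODE M21, which held 92.2% of the identifiers in the same version, and promoters from RefSeq. Near-identical transcripts were found with BLAST.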

Additional observations from a re-analysis of the deposited data

How the results depend on the processing

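Padi4 and Ncf4 were called lower in each of the 15 alternative fits, Chil1 lost the call in 5, Serpinb1a in 2, and Pglyrp1 and Trem1 in 1 each, where libraries had a common sum. Under that scaling 3 members were lower, with 329 of all tested genes. DESeq2 called 11 members lower, and 1126 genes lower and 780 higher of all tested. No label pairs the samples, the titles and the deposited columns number the second WT library differently (2 and 3), and replicate 2 minus replicate 1 correlated between the groups (r = 0.332 across 12357 genes, which are not independent). With the replicate number as a block, limma called 10 members lower (the 6 and Elane, Cd177, Chil3 and Ms4a3), and 1030 genes lower and 691 higher. In addition to these, edgeR with the replicate block, added after the data were seen, called Ltf, Ngp, Olfm4 and Lyz2, 14 members in all, and 1095 genes lower and 772 higher. Leaving out each library in turn gave 5 to 19 members lower and 0 to 1 higher, with 339 to 920 genes lower and 113 to 700 higher. The members' median then lay between −0.83 and −0.39. The cause of these shifts was not tested. The log2 fold change of Cebpe was 0.038 with a common sum and 0.0034 by edgeR, and that of Ctsg 0.034 with a common sum. Values crossed 0 when a library was left out for Anxa1 (−0.074 to 0.092), Camp (−1.57 to 0.73), Cebpe (−0.27 to 0.25), Ctsg (−0.23 to 0.19), Cybb (−0.19 to 0.54), Gfi1 (−0.95 to 0.14), Hp (−0.076 to 0.35), Mpo (−0.0076 to 0.46), Ngp (−1.97 to 0.18) and Prtn3 (−0.12 to 0.28). With 2 libraries a group, the spread between them limits these comparisons.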
